A study of Mus musculus with 5 samples.

Results

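Promoters of long noncoding RNA (lncRNA) genes were compared between *Cebpa*-mutant acute myeloid leukemia (AML) with and without *Tet2*. The genes were those that GENCODE release M21 classes as lincRNA or antisense on the autosomes of GRCm38, with a transcription start site (TSS) over 5 kb from the TSS of any protein-coding gene. A promoter was the TSS with 1 kb on each side, and it was kept when every library held at least 20 calls. Of 6450 such genes, 5921 (91.8%) could be tested, 4143 lincRNA and 1778 antisense genes, and 529 were left out for low coverage. They made up 5921 of the 26243 autosomal promoters measured in the same way, the others being 18704 protein-coding promoters and 1618 lncRNA promoters nearer to a coding TSS. The rule uses position and coverage, not the methylation level, but it was set with earlier results of these data known. In 270 of the 5921, the window overlapped that of another lncRNA, so that these promoters share calls. In 589 the start of another transcript of a coding gene, itself coding or not, lay within 5 kb.

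All 5 libraries hold genomic DNA of AML blasts from the bone marrow of mice labelled C57BL/6 that carry *Cebpa*-/p30, in which only the short p30 isoform of the myeloid transcription factor CEBPA is made. *Tet2* was intact in 2 libraries (*Tet2*+/+, numbers 23 and 24) and deleted in 3 (*Tet2*-/-, numbers 5, 7 and 8), each from a separate mouse. Floxed alleles had been recombined with Mx1-Cre, which poly(I:C) switches on in blood cells and in other interferon-responsive cells, and the leukemias grew in irradiated recipients of a congenic strain. Blasts were sorted as live donor-derived marrow cells without markers of T, B and erythroid cells, so that a shift in the mix of remaining cell types and a change within each cell cannot be told apart. The files hold no RNA, and the cell type was not checked against expressed markers.

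Long noncoding RNAs are longer transcripts without a long reading frame. Some act in the nucleus on chromatin or splicing, some serve as precursors of small RNAs, and for most no function is known. Their promoters are on average poorer in CpG than those of coding genes, and fewer of them are CpG islands. TET2 oxidizes 5-methylcytosine to 5-hydroxymethylcytosine, a step towards demethylation, and bisulfite sequencing reads both modified bases as methylated.

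The 5 libraries had 2.999 to 5.267 calls per autosomal CpG dyad, that is, per CpG with both strands added. Over the 27 CpG dyads in the coding part of the last *Tet2* exon (chr3:133466740-133468190), libraries 23 and 24 had 83 and 111 calls, and the 3 *Tet2*-/- libraries had 0. Over the autosomes 67.3% and 62.3% of calls were methylated in *Tet2*+/+, and 70.9%, 74.8% and 68.4% in libraries 5, 7 and 8 (*Tet2*-/-), so that a lncRNA promoter is read below against a genome that was itself higher in *Tet2*-/-.

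The shift described below was broad, and the promoters with the largest differences or a known name are described one by one. For 4 of these the sequence is shown from the GRCm38.p6 reference. Each is the 300 bases of its promoter with the most CpG dyads, among stretches that touch no annotated untranslated region. They are written 5′ to 3′ on the strand of the lncRNA, with each CpG in capitals. *Peak1os*, *Gm32552* and *Lncenc1* were higher in *Tet2*-/-, and *1700001L05Rik* was lower.
*Peak1os* (chr9:56257768-56258067, plus strand, 14 CpG dyads): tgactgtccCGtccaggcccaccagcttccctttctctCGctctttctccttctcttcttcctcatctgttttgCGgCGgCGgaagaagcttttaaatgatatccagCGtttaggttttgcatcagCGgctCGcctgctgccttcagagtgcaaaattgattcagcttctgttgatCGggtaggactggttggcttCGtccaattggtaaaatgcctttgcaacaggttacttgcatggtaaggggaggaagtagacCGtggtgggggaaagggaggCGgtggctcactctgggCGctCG
*Gm32552* (chr10:117866044-117866343, minus strand, 12 CpG dyads): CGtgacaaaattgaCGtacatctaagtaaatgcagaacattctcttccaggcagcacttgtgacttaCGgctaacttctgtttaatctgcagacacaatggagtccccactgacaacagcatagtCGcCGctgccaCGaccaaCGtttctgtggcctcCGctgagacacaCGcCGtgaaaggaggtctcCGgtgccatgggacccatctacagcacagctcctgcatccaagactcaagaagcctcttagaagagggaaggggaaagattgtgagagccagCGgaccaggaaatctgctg
*Lncenc1* (chr13:97435388-97435687, plus strand, 11 CpG dyads): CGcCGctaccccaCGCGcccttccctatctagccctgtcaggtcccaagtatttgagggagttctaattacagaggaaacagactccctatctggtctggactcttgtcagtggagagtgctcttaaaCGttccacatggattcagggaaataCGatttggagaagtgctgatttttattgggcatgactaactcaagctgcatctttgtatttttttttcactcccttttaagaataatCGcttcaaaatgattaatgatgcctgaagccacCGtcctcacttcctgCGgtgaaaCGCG
*1700001L05Rik* (chr15:83367196-83367495, minus strand, 31 CpG dyads): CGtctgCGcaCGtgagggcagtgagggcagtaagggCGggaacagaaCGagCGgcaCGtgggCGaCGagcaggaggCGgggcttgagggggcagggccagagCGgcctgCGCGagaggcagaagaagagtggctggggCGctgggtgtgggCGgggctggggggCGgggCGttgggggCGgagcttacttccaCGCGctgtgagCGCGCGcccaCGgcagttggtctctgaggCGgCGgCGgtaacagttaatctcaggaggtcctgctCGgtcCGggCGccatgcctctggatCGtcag

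Within these 300 bases, the level of *Peak1os* was 3.70% and 1.12% in *Tet2*+/+ and 82.4%, 92.6% and 88.7% in *Tet2*-/- (53 to 119 calls). *Gm32552* stood at 11.4% and 14.3% against 94.8%, 98.4% and 94.7% (35 to 84 calls). *Lncenc1* stood at 9.43% and 11.8% against 38.7%, 59.8% and 54.0% (50 to 92 calls). In all 3 stretches the level was low in both *Tet2*+/+ mice and higher in every *Tet2*-/- mouse, largely methylated at *Peak1os* and *Gm32552* and partly at *Lncenc1*. Within the *Lncenc1* stretch, the 200-bp bin at 600 bp from the TSS stayed low in all libraries, at 0% and 4.76% in *Tet2*+/+ and 10%, 5% and 9.09% in *Tet2*-/- (at least 11 calls per library). *1700001L05Rik* had a level of 94.0% in library 23 and 15.4% in library 24, and 0.667%, 0.578% and 0.962% in *Tet2*-/- (39 to 173 calls). Here the 2 *Tet2*+/+ mice differed from each other by more than library 24 did from the other group. These stretches lie inside the promoters tested below and are no separate evidence.

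lncRNA promoters as a whole carried more methylation in *Tet2*-/- blasts. Averaged over the 5921 promoters, the level was 64.0% in library 23 and 59.8% in library 24 (*Tet2*+/+), against 69.2%, 74.4% and 67.1% in libraries 5, 7 and 8 (*Tet2*-/-; 61.9% ± 2.93 against 70.3% ± 3.74, SD, n = 2 and 3). All 3 *Tet2*-/- libraries lay above both *Tet2*+/+ libraries. The difference of group means was positive in 5065 promoters (85.5%), with a median of 6.88 percentage points (interquartile range 2.15 to 13.03). The median was 2.25 points over protein-coding promoters, 2.69 over lncRNA promoters within 5 kb of a coding TSS and 3.11 over all promoters. Promoters share libraries and are not replicates, so these medians are descriptions with no test. Library 24 was the lowest of the 5 at 3053 lncRNA promoters (51.6%) and library 7 the highest at 3605 (60.9%). Within *Tet2*+/+ the median gap between libraries at a promoter was 6.34 points, and within *Tet2*-/- the median range was 10.6 points, the first close to the median difference between the groups and the second larger.

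How lncRNA promoters stood against coding promoters depended on their CpG content. Promoters were classed as CpG-poor (under 20 dyads), intermediate or CpG-dense (at least 50 dyads). Of the lncRNA promoters 37.4% were CpG-poor, 54.9% intermediate and 7.70% CpG-dense, whereas 64.3% of the protein-coding promoters were CpG-dense. In the CpG-poor and intermediate classes the median difference was 6.40 and 7.67 points for lncRNA promoters, and 7.29 and 6.82 points for coding promoters. In those classes lncRNA and coding promoters thus had medians within 1 point of each other. In the CpG-dense class the median was 3.995 points for 456 lncRNA promoters and 1.07 points for 12020 coding promoters. The CpG-dense lncRNA promoters were also more methylated at the outset, at 31.7% and 29.2% in *Tet2*+/+ and 36.5%, 37.2% and 36.6% in *Tet2*-/-. CpG-dense coding promoters averaged 11.1% ± 0.814 (SD, n = 2) and 13.9% ± 0.540 (SD, n = 3). A level under 20% in every library was found in 32.0% of the CpG-dense lncRNA promoters and in 72.7% of the coding ones, and a level over 60% in every library in 16.9% and 1.77%.

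**Figure D1:**
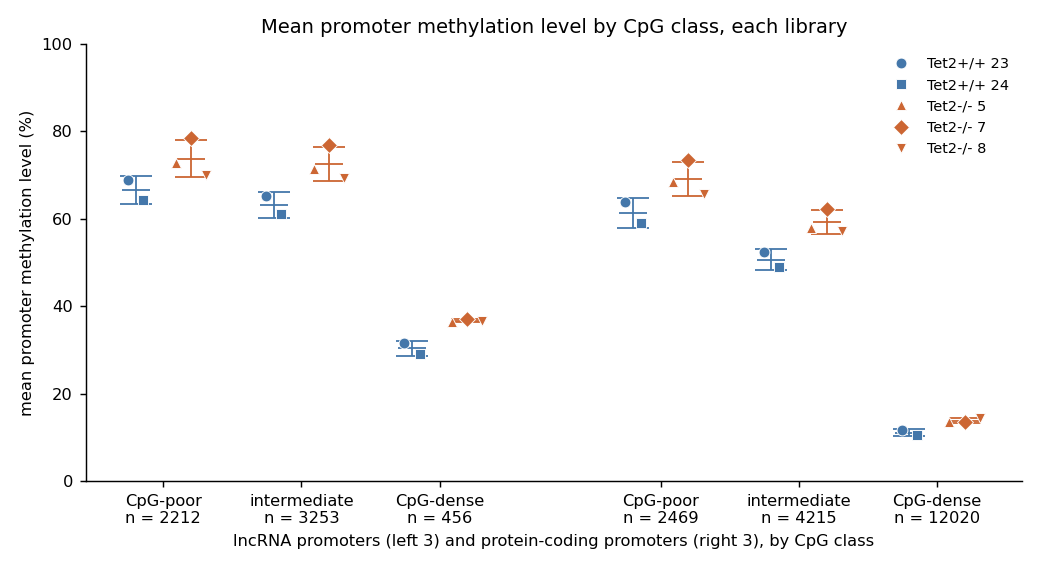
Mean promoter methylation level (%, vertical axis) in each of the 5 libraries, for lncRNA promoters (left 3 columns) and protein-coding promoters (right 3 columns) by CpG class. Points are libraries, and lines give the group mean ± SD (n = 2 *Tet2*+/+ and 3 *Tet2*-/-). In every class the 3 *Tet2*-/- libraries lie above both *Tet2*+/+ libraries, and CpG-dense lncRNA promoters (about 30.4% and 36.8%) lie above CpG-dense coding promoters.

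The medians varied little with where a lncRNA starts. The median difference was 6.41 points for antisense and 7.05 for lincRNA promoters. It was 7.20 points for the 4270 promoters outside protein-coding genes, 6.09 for the 1280 within an intron on the opposite strand and 6.01 for the 322 over an exon on the opposite strand. By distance to the nearest coding TSS (median 57711 bp) it lay between 6.47 points, over 200 kb away, and 7.04 points, at 50 to 200 kb. Promoters whose sequence is over 50% repeat (n = 315) had a median of 4.84 points, and those with 5 to 20% repeat (n = 2979) 7.27 points. By the mean level over the 5 libraries, the median was largest at 40 to 60% (10.3 points, n = 849) and smallest under 20% (1.64 points, n = 327). A level near either end of the scale leaves less room for a difference in points.

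Around the TSS, calls were pooled in 200-bp bins over all promoters of a class. Intermediate lncRNA promoters showed a shallow dip, from 67.01% at 4 to 5 kb to 55.5% ± 3.74 at the TSS in *Tet2*+/+ (n = 2), and from 75.2% to 65.3% ± 3.91 in *Tet2*-/- (n = 3). All 3 *Tet2*-/- libraries were above both *Tet2*+/+ libraries in all 51 bins, so that the difference was not confined to the start site. CpG-dense lncRNA promoters dipped to 21.3% ± 2.13 and 22.7% ± 1.48 at the TSS, a difference smaller than the spread between libraries, and the groups were separate in 10 of 51 bins. CpG-dense coding promoters dipped to 4.23% ± 0.481 and 5.28% ± 0.209. The dip of the CpG-dense lncRNA promoters was thus the shallower one in both genotypes. Pooling gives more weight to promoters with more calls than the mean over promoters does.

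**Figure D2:**
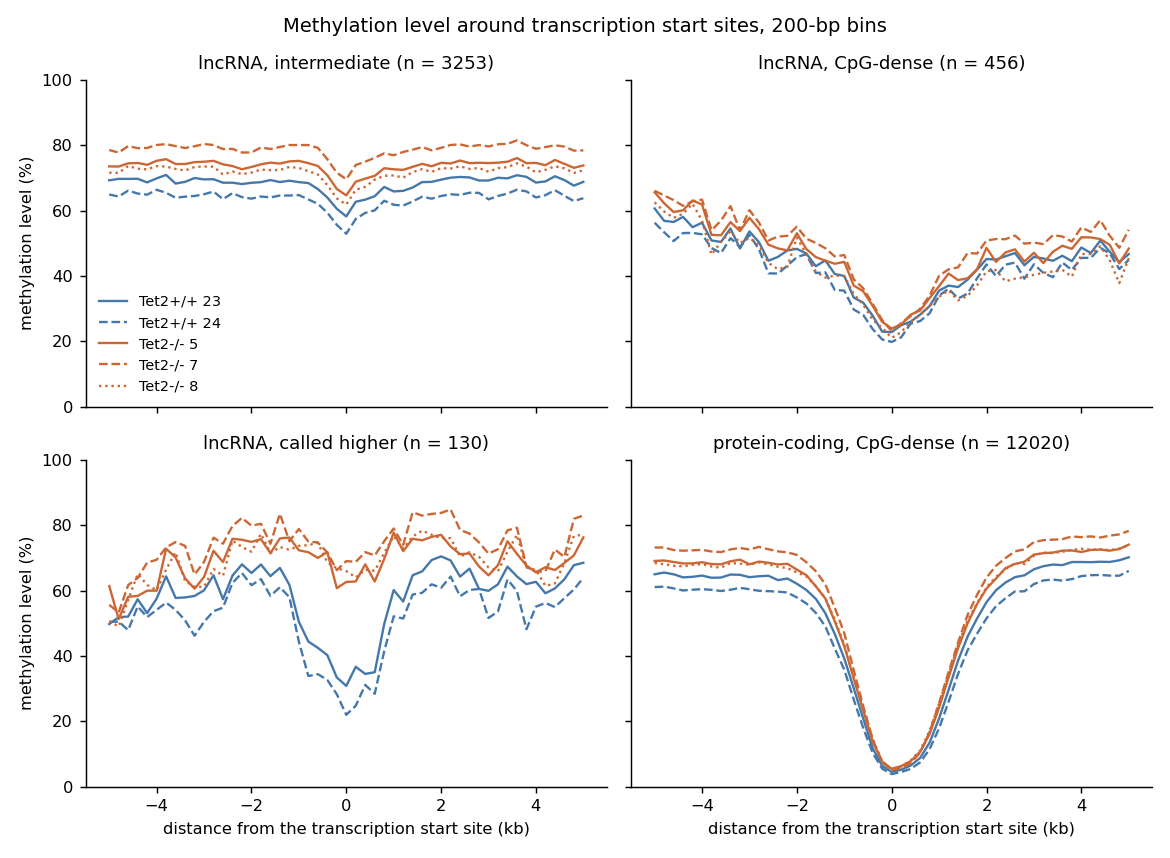
Methylation level (%, vertical axis) against distance from the TSS (kb, horizontal axis, positive in the direction of transcription) in 200-bp bins, 1 line per library. Intermediate lncRNA promoters are shifted as a whole, CpG-dense lncRNA promoters overlap at the TSS, and the 130 lncRNA promoters that rose differ most within 1 kb, from 26.4% to 65.9% at the TSS; that last panel was chosen on this contrast and is a description.

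Each promoter was then tested by itself, with the quasi-likelihood test of edgeR fitted to the calls of all 26243 promoters at once and Benjamini-Hochberg adjustment at 0.05. In *Tet2*-/-, 130 lncRNA promoters rose and 1 fell. These 131 are 2.21% of the lncRNA promoters, against a background of 1.93% of all promoters called (1.91% higher and 0.0229% lower). The share was therefore close to the background, and whether the small excess differs from it was not tested. Limma called 113 lncRNA promoters, with a background of 1.72%. A difference of over 20 points in *Tet2*-/- was found at 607 (10.3%, background 6.13%). By CpG class, it was found at 12.05% of intermediate and 8.002% of CpG-poor lncRNA promoters. Over all promoters of those classes the shares were 11.67% and 8.64%. In the CpG-dense class it was 8.33% against 1.99%. Groups that do not overlap, with all *Tet2*-/- libraries above both *Tet2*+/+ libraries, were found at 2346 lncRNA promoters (39.6%, background 35.1%), and the opposite order at 89 (1.503%, background 3.33%). The share with *Tet2*-/- above was 45.1% in the intermediate and 32.1% in the CpG-poor class, against 45.6% and 33.03% of all promoters. In the CpG-dense class it was 36.6% against 29.7%. Large differences and separate groups were thus near the background in the intermediate and CpG-poor classes. Their excess in the CpG-dense class was not tested. At an unadjusted p under 0.05 there were 1293 promoters (21.8%, background 19.3%).

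The called promoters were mostly of intermediate CpG content, with 102 of them intermediate, 21 CpG-dense and 8 CpG-poor. As shares these are 3.14%, 4.61% and 0.362% of the lncRNA promoters of each class, against 3.06%, 1.76% and 0.557% of all promoters of the same classes. The shares of the intermediate and CpG-poor classes were thus near the background, and the excess in the CpG-dense class was not tested. CpG-poor promoters also had the fewest calls (median of 44.5 in the shallowest library, against 97 and 221.5). The count rests on library 24: without it 2 lncRNA promoters were called by edgeR (background 0.00762%) and 6 by limma (background 0.0686%), with 501 at an unadjusted p under 0.05 (background 8.43%), and *Tet2*+/+ then has 1 library, whose spread is taken from the other group. Without library 23, 7 or 8 the count was 32, 60 or 71 (background 0.423%, 0.793% and 0.85%). After each library's median over all promoters was subtracted, which removes a shift of 0.58 in log2 of methylated over unmethylated calls, 13 lncRNA promoters were called by limma (background 0.194%), 12 higher and 1 lower (background 0.164% and 0.0305%), and the median lncRNA promoter stood 0.03 above the median promoter.

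The 130 promoters that rose were chosen by this contrast, and the values that follow describe them. Their median level was 38.1% in *Tet2*+/+ and 80.7% in *Tet2*-/-, with differences from 6.95 to 72.6 points. Of the 130, 20 were under 20% in both *Tet2*+/+ libraries, 96 were over 60% in all 3 *Tet2*-/- libraries and 2 met both limits. They lay on all 19 autosomes and 41 were antisense genes. The flanks at 1 to 5 kb on both sides had a median level of 63.1% and 76.7%, and in 33 of 130 the flank difference was over 0.5 times that of the promoter. The flanks differed by a median of 10.9 points, against 7.38 points over all tested lncRNA promoters. The gene body beyond the promoter differed by a median of 11.04 points where it could be measured (n = 116). Over all tested lncRNA genes with a measured body (n = 5095) it differed by 7.06 points. The promoter of the nearest coding gene differed by a median of 1.32 points and was called in 1 of 130, against 97 of 5833 for all lncRNA promoters with such a neighbour.

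*Peak1os* (ENSMUSG00000097111.1, chr9:56256890-56258890), an antisense gene whose start lies over an exon of *Peak1* on the other strand, had the largest rise. PEAK1 is a pseudokinase scaffold of the cytoskeleton. The level over its 42 CpG dyads was 12.3% and 6.18% in *Tet2*+/+, and 75.2%, 88.8% and 81.4% in *Tet2*-/- libraries 5, 7 and 8. The 95% counting intervals (Clopper-Pearson) were 7.54 to 18.5% and 3.12 to 10.8% in *Tet2*+/+, and the lowest bound in *Tet2*-/- was 69.7%. The groups were far apart, and the promoter rose by 72.6 points (9.22% ± 4.30 to 81.8% ± 6.82, SD, n = 2 and 3, edgeR adjusted p = 0.00106). *Gm32552* (ENSMUSG00000112711.1, chr10:117865715-117867715) is a lincRNA gene between coding genes, 20680 bp from the TSS of *Rap1b*, which encodes a small GTPase of integrin signalling. Its level was 10.6% and 16.3% in *Tet2*+/+ and 63.3%, 86.2% and 74.1% in *Tet2*-/- (edgeR adjusted p = 0.00345). The *Rap1b* promoter stayed low, at a mean of 6.81% and 8.59%.

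Several other lncRNA promoters among the 10 with the largest rises had *Tet2*-/- libraries all over 80%. *C230057M02Rik* (chr8:122751325-122753325), on the strand opposite to the long transcript model *Gm20388*, had 44.5% and 12.4% against 86.9%, 89.6% and 86.5% (edgeR adjusted p = 0.00501). *Gm2245* (chr15:6653303-6655303) is an antisense gene in an intron of *Fyb*, which encodes an adaptor protein of T cells and myeloid cells. Its level was 33.3% and 26.2% against 91.5%, 93.4% and 82.0% (edgeR adjusted p = 0.00247). A start of some transcript of a coding gene lies 208 bp away, so the window may also be a promoter of a coding gene. *4932702P03Rik* (chr13:24904593-24906593), an antisense gene, had 26.3% and 32.4% against 82.9%, 92.1% and 84.8% (edgeR adjusted p = 0.00219). *4930448A20Rik* (chr7:126739629-126741629), a lincRNA gene 18972 bp from the TSS of the kinase gene *Mapk3*, had 44.9% and 27.6% against 85.5%, 92.5% and 85.9% (edgeR adjusted p = 0.00306). At *4932702P03Rik* the flanks differed by 2.65 points and at *C230057M02Rik* by 3.01 points, so that at these starts the difference was narrow.

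In 3 other promoters the *Tet2*-/- libraries were less alike. *4930452N14Rik* (chr1:154255906-154257906), a lincRNA gene, had 35.0% and 6.93% against 72.2%, 89.3% and 74.1% (edgeR adjusted p = 0.0165). *Gm26739* (chr8:120597552-120599552), a lincRNA gene, had 14.7% and 14.8% against 67.2%, 90.6% and 44.3% (edgeR adjusted p = 0.0219). *2810442N19Rik* (chr1:162003969-162005969), an antisense gene in an intron of *Dnm3*, a dynamin gene of membrane scission, had 2.52% and 10.9% against 38.8%, 70.8% and 66.2% (edgeR adjusted p = 0.00682). In each of them every *Tet2*-/- library was above both *Tet2*+/+ libraries, yet the *Tet2*-/- libraries spanned over 15 points.

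A pair of antisense genes at *Hmga2* was singled out after the values were seen, because both were called with all libraries. Other lncRNA starts within *Hmga2* that were not called, if any, were not counted. *Hmga2* encodes an architectural chromatin protein of fetal and stem cells. *1700006J14Rik* (chr10:120363157-120365157), which starts over an exon of *Hmga2* on the other strand, had 32.1% and 34.4% against 87.1%, 95.5% and 86.4% (edgeR adjusted p = 0.00311). *9230105E05Rik* (chr10:120388523-120390523), which starts in an intron, had 28.8% and 22.6% against 62.0%, 89.1% and 72.6% (edgeR adjusted p = 0.0194). The call of *9230105E05Rik* ended without library 23 or 24 (edgeR adjusted p = 0.0943 and 0.350) and after subtraction of library medians (limma adjusted p = 0.130). The flanks of these starts differed by 21.5 and 24.4 points. The *Hmga2* promoter, 112312 bp and 86946 bp away, had means of 2.93% and 12.1% and was not called (edgeR adjusted p = 0.11).

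Without library 24, edgeR called none of the 10 lncRNA promoters with the largest rises (adjusted p 0.066 to 0.343, all 10 at an unadjusted p under 0.05), and limma called 3. Without library 23, *2810442N19Rik* and *Gm26739* were not called (edgeR adjusted p = 0.0726 and 0.106). Leaving out library 5, 7 or 8 ended none of these 10 calls. After subtraction of library medians, *4930452N14Rik* and *Gm26739* were not called by limma (adjusted p = 0.0618 and 0.135). Depth over these 10 promoters ran from 58 to 372 calls per library.

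**Figure D3:**
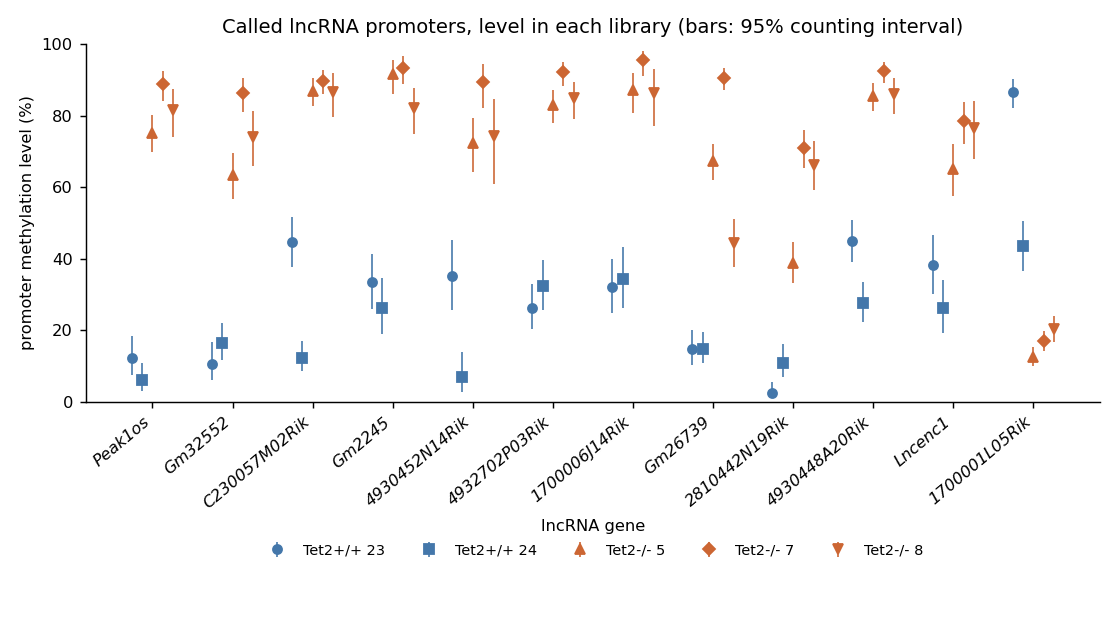
Promoter methylation level (%, vertical axis) of the 10 lncRNA promoters with the largest rise, of *Lncenc1* and of *1700001L05Rik*, 1 point per library with its 95% Clopper-Pearson counting interval. For the first 11 genes every *Tet2*-/- point lies above both *Tet2*+/+ points, and for *1700001L05Rik* the points run from 86.6% and 43.5% in *Tet2*+/+ to between 12.5% and 20.2% in *Tet2*-/-.

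The single promoter called lower was that of *1700001L05Rik* (ENSMUSG00000075511.9, chr15:83366282-83368282), a lincRNA gene with a CpG-dense promoter of 84 dyads. Its level was 86.6% in library 23 and 43.5% in library 24, and 12.5%, 16.9% and 20.2% in *Tet2*-/- (65.0% ± 30.5 to 16.5% ± 3.86, SD, edgeR adjusted p = 0.0187). Both *Tet2*+/+ libraries were above all *Tet2*-/- libraries, but they differed from each other by more than library 24 did from *Tet2*-/-. What sets these 2 mice apart at this promoter was not tested. Without library 23 the promoter differed by -26.9 points and was not called (edgeR adjusted p = 0.0973), nor was it without library 7 (edgeR adjusted p = 0.0668). The difference was larger without library 24, when library 23, at 86.6%, is the only *Tet2*+/+ library, and this promoter was among the calls that remained. The flanks were 84.5% and 87.6%. Depth at this promoter was 291 and 207 calls in libraries 23 and 24, and 638, 724 and 494 calls in libraries 5, 7 and 8. That is 0.69 (library 24) to 2.0 (library 8) times what the library's mean depth gives for its dyads. On this relative scale both *Tet2*+/+ libraries lay below all *Tet2*-/- libraries. How far this uneven depth bears on the call was not tested.

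The lower side held few others. Some lncRNA promoters did not pass the test but had separate groups and an unadjusted p under 0.05. Among these, *Gm7762*, *Gm5627* and *Gm28548* had the largest differences towards lower levels. *Gm7762* (7 dyads) had 75.0% and 66.7% against 30.6%, 54.7% and 46.2% (edgeR adjusted p = 0.18). *Gm5627* had 83.1% and 80% against 64.2%, 64.3% and 60.6% (edgeR adjusted p = 0.149). *Gm28548* had 87.0% and 92.9% against 79.5%, 74.8% and 75.7% (edgeR adjusted p = 0.174). All 3 are lincRNA genes of no known role, and their unadjusted p values were 0.021, 0.014 and 0.019.

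Around 4 of the starts, the difference was followed in 200-bp bins. At *Peak1os*, differences over 40 points ran from -200 bp to 1600 bp relative to the TSS, in 10 of the 24 bins that held at least 5 calls in every library. The largest was at 1 kb, where the mean was 5.26% in *Tet2*+/+ and 95.7% in *Tet2*-/-. At *Gm32552* such differences ran from -400 bp to 800 bp in 6 of 17 bins, with the median of the bins beyond 1 kb at 5.16 points. The *Tet2*-/- libraries were unlike each other upstream of that start, at 15.4%, 82.8% and 35.0% in the bin at -200 bp, and library 5 was still at 18.9% at the TSS. At *1700001L05Rik*, 4 of 20 bins between -200 bp and 400 bp differed by over 40 points, and outside 1 kb the median was 4.35 points. These 4 bins rest on library 23: library 24 stood there at 6.90% to 33.3% and the *Tet2*-/- libraries at 0% to 6.08%, so that without library 23 none of the 4 differed by over 40 points. With all libraries, the bins that differed by over 40 points at these 3 starts spanned at most 2 kb. The flanks had a mean level of at least 68.4% in *Tet2*+/+. At *Gm32552* no bin from 1000 bp to 2400 bp held 5 calls in every library, so that its downstream edge was not measured. At *Lncenc1*, by contrast, 6 of 27 bins differed by over 40 points and were spread from -3600 bp to 1200 bp.

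**Figure D4:**
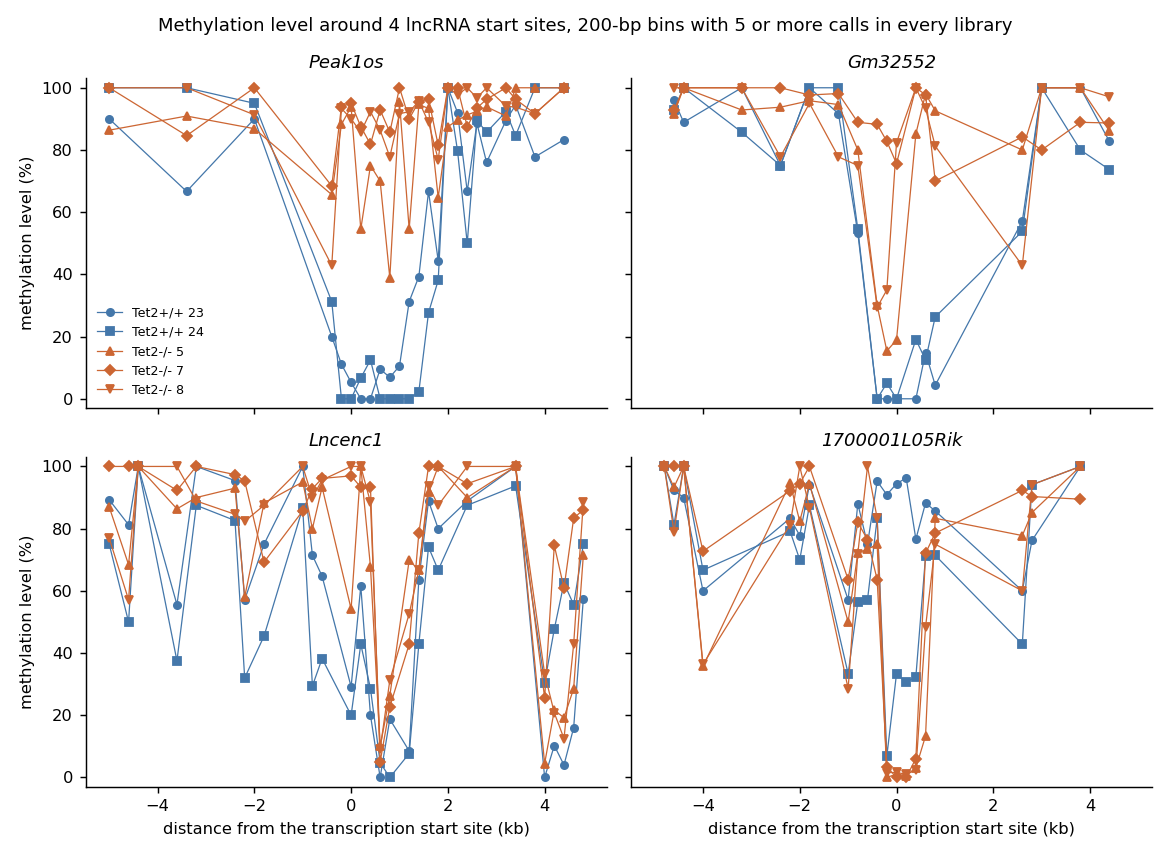
Methylation level (%, vertical axis) in 200-bp bins around the TSS of 4 lncRNA genes (distance in kb, horizontal axis, positive in the direction of transcription), 1 line per library, bins with 5 or more calls in every library. At *Peak1os* the valley of the *Tet2*+/+ libraries is largely filled in *Tet2*-/-, at *Gm32552* it is filled downstream of the TSS while library 5 stays low at the TSS (18.9%), at *Lncenc1* part of it remains in all libraries, and at *1700001L05Rik* library 23 has no valley.

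Known lncRNA genes were taken from 7 lists of 117 symbols by role. Of these symbols 51 were among the 5921 promoters, 25 were measured in another class of promoter (21 lncRNA promoters near a coding TSS and 4 coding) and 41 were not matched. Of the 51, *Lncenc1* alone was called (by edgeR and by limma, background 1.93% and 1.72%), and 13 had an unadjusted p under 0.05 (25.5%, background 19.3%). All *Tet2*-/- libraries were above both *Tet2*+/+ libraries in 18 of the 51 (35.3%, background 35.1%) and below in 1 (background 3.33%), so that the share of separate groups was close to that of all promoters. The difference was positive in 43 of 51, with a median of 5.31 points, against 85.5% and 6.88 points over all lncRNA promoters and 79.3% and 3.11 points over all promoters. After subtraction of library medians 21 of 51 were above the median promoter, so that the count of positive differences depended on this subtraction.

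*Lncenc1*, a lncRNA of naive pluripotent stem cells, belongs to the pluripotency list with the *Platr* transcripts, which are named for their link to pluripotency. Its promoter (ENSMUSG00000078952.9, chr13:97433970-97435970) had 38.1% and 26.2% in *Tet2*+/+, and 65.0%, 78.4% and 76.5% in *Tet2*-/- (32.2% ± 8.41 to 73.3% ± 7.26, SD, n = 2 and 3). The groups were separate and the promoter rose by 41.1 points (edgeR adjusted p = 0.0210). It was not called without library 23, 24 or 8 (edgeR adjusted p = 0.0765, 0.404 and 0.056), nor after subtraction of library medians (limma adjusted p = 0.160). The list had 13 measured promoters, 12 of them with a positive difference (4 after subtraction of library medians) and a median of 6.03 points. *Platr4* had 33.6% and 63.9% against 75.7%, 86.2% and 77.6% (edgeR adjusted p = 0.0802). *Platr3* had 74.1% and 76.1% against 86.4%, 94.0% and 83.3% (edgeR adjusted p = 0.267). In *Platr5* the groups overlapped, at 66.7% and 65.2% against 64.5%, 84.6% and 68.8%.

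Imprinted lncRNAs are read from 1 parental allele and often start in a differentially methylated region, so a level near the middle of the scale is known for such starts. None of 7 was called by edgeR or limma (background 1.93% and 1.72%), and 1 had an unadjusted p under 0.05 (14.3%, background 19.3%). *Airn*, the antisense RNA that silences *Igf2r* in cis, had 56.8% and 38.2% against 79.8%, 64.7% and 62.3%. The groups were separate and differed by 21.4 points (edgeR adjusted p = 0.173). *H19*, read from the maternal allele, had 70.0% and 56.3% against 70.3%, 78.3% and 68.0%. *Meg3*, also read from the maternal allele, had 66.1% and 79.0% against 81.8%, 81.7% and 77.6%. In both the groups overlapped. *Kcnq1ot1*, the paternally read antisense RNA of *Kcnq1*, had 29.3% and 32.2% against 43.5%, 30.5% and 26.9%. *Nespas*, an antisense RNA of the *Gnas* cluster that was singled out after its values were seen, had 67.1% and 61.8% against 66.7%, 69.1% and 37.9%, where library 8 stood apart.

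Among lncRNAs of blood and immune cells, none of 11 was called by edgeR or limma (background 1.93% and 1.72%). An unadjusted p under 0.05 was found in 2 of the 11 (18.2%, background 19.3%), close to the share of all promoters. *Mir17hg*, the host of the miR-17-92 cluster, had 6.03% and 3.63% against 14.9%, 8.67% and 8.20% (edgeR adjusted p = 0.233). *Mir155hg*, the host of miR-155, had 14.6% and 12.4% against 17.3%, 19.03% and 20.1% (edgeR adjusted p = 0.436). In these hosts the groups were separate at low levels. *Trp53cor1* (lincRNA-p21), a target of p53, had 19.3% and 19.1% against 21.4%, 25.8% and 19.8%. *Ptgs2os2* stayed between 0.826% and 4.55% in all libraries. A pair was singled out after its values were seen: *Ifngas1*, which lies near the interferon gamma gene, had 55.4% and 48.6% against 72.8%, 84.1% and 71.2% (edgeR adjusted p = 0.11), and *Pvt1*, the neighbour of *Myc*, had 38.4% and 32.3% against 27.8%, 23.3% and 28.1% (edgeR adjusted p = 0.359). *Pvt1* was the listed gene with all *Tet2*-/- libraries below both *Tet2*+/+ libraries.

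Nuclear and housekeeping lncRNAs include *Malat1* and *Neat1*, abundant RNAs of nuclear speckles and paraspeckles. *Malat1* had 0.302% and 2.47% against 0.797%, 0.455% and 0.269%, and *Neat1* had 0.392% and 1.64% against 0.267%, 0.189% and 1.36%. Both promoters were almost unmethylated in every mouse, with upper 95% bounds of at most 4.64% and 3.92%. *Miat* had 18.2% and 12.6% against 22.5%, 24.8% and 27.0% (edgeR adjusted p = 0.23), with separate groups. Host genes of small nucleolar RNAs were low as well. *Snhg6* lay between 4.20% and 9.03%, *Snhg12* between 8.78% and 13.1% and *Epb41l4aos* between 1.62% and 5.59% in the 5 libraries, whereas *Snhg20* lay between 17.5% and 31.7%. None of these 4 hosts was called by edgeR or limma (background 1.93% and 1.72%), nor was any of the 3 nuclear lncRNAs. Each of these sets had 1 promoter at an unadjusted p under 0.05 (background 19.3%), and sets this small cannot be told from the background.

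In the HOX clusters, whose lncRNAs lie among the homeobox genes, *Hotair* had 36.2% and 24.8% against 37.0%, 38.7% and 36.7% (edgeR adjusted p = 0.624), and *Halr1* had 71.3% and 60.2% against 68.3%, 84.2% and 82.0%. Neither was called by edgeR or limma (background 1.93% and 1.72%), and neither had an unadjusted p under 0.05 (background 19.3%). Of 11 developmental lncRNAs, some of which lie beside transcription factor genes, none was called by edgeR or limma (background 1.93% and 1.72%). An unadjusted p under 0.05 was found in 5 (background 19.3%). The difference was positive in 10 (79.3% over all promoters), and in 7 after subtraction of library medians. *Nkx2-2os* had 7.30% and 7.42% against 12.7%, 14.4% and 16.3% (edgeR adjusted p = 0.14), with separate groups. *Carmn*, a lncRNA of heart and smooth muscle, had 76.2% and 68.1% against 79.5%, 88.0% and 77.5%, also separate. *Dlx6os1* (12.1% and 22.5% against 31.7%, 21.7% and 26.2%) and *Rmst* (57.0% and 67.2% against 69.7%, 74.0% and 54.1%) overlapped.

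**Figure D5:**
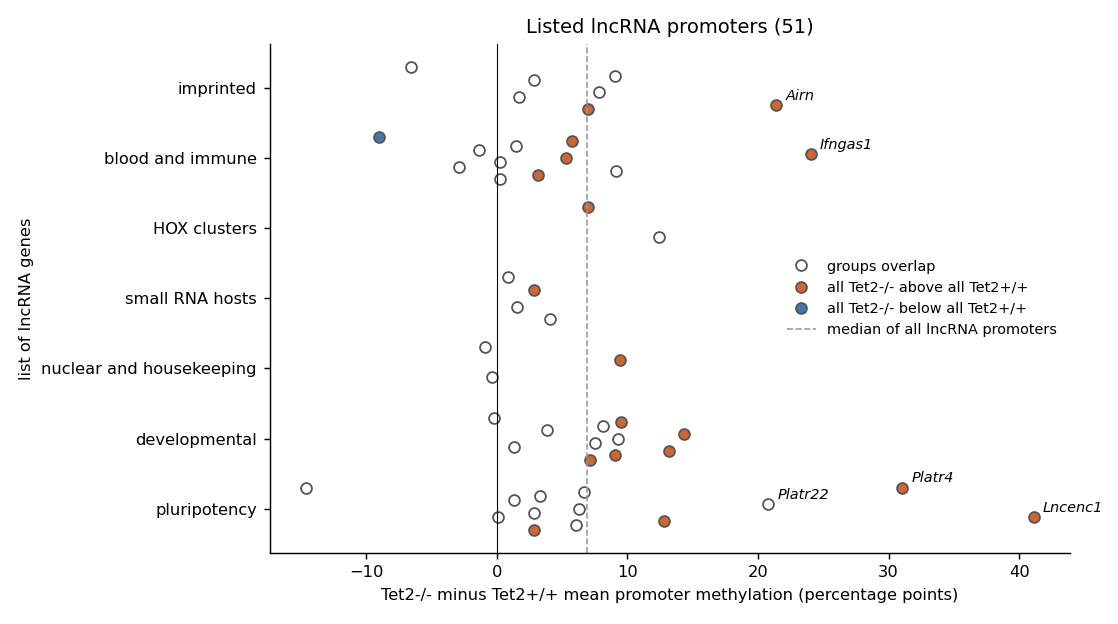
Difference of group means, *Tet2*-/- minus *Tet2*+/+ (percentage points, horizontal axis), for the 51 listed lncRNA promoters by list. Filled points have groups that do not overlap, the dashed line is the median of all lncRNA promoters (6.88), and genes with a difference over 20 points are named. Of the 51 points 43 lie above 0, with *Lncenc1* (41.1) at the far right.

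The sequence of the promoters that rose was searched for 6 short motifs on both strands, none of which contains another. To set promoters of like CpG content beside each other, the 102 intermediate promoters that rose were compared with all 3253 intermediate lncRNA promoters. The E-box CACGTG was present in 36.3% of the 102, in 29.3% of the 3253 and in 28.8% of all promoters. The GC box GGGCGG was present in 44.1%, 37.2% and 64.4%, and the ETS core GGAAGTG in 43.1%, 37.9% and 38.5%. The GATA site AGATAA was present in 59.8%, 64.6% and 57.2%. The palindromic C/EBP site with a central CpG, TTGCGCAA, was present in 1 of the 102 (0.980%), in 0.184% of the 3253 and in 0.568% of all promoters. The cAMP response element TGACGTCA was present in 4 of the 102 (3.92%), in 2.40% of the 3253 and in 3.88% of all promoters. These shares describe letters in a window and were not tested.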

How the data were processed

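Libraries were made by random-primed preparation of bisulfite-converted DNA from sorted blasts. As the labels and the study's methods state, the authors used Trim Galore 0.4.3 for trimming and Bismark 0.19.1 with Bowtie2 for alignment to GRCm38, removed duplicates by position and deposited counts of methylated and unmethylated calls per CpG cytosine, not normalized. Calls of both strands were added per dyad, and all 20383623 autosomal dyads fell on a CG of the reference. The level of a promoter was methylated over all calls, as in the study. Libraries were grouped by their titles, and the labels name no batch.

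edgeR 4.0.16 (R 4.3.3) was fitted to both counts of each promoter with a coefficient per library, one for methylation and one for its difference between genotypes. Limma 3.58.1 was applied to log2 ratios with 2 added to each count. The fits were also run on simulated counts with a fixed spread between libraries and no genome-wide shift. Real libraries differ in both respects, so that run says nothing about the calls reported. Promoters named were, in each direction, up to 10 called ones with separate groups and the largest difference. Where fewer than 3 passed, up to 3 uncalled ones with separate groups and an unadjusted p under 0.05 were added. From each list up to 4 were named in list order, plus every called one. Members and lists were chosen with earlier results of these data known. Python 3.11.15, pandas 2.3.3, scipy 1.17.1 and matplotlib 3.10.9 were used. Counting intervals treat each call as independent and leave out the spread between mice. Calls of neighbouring CpGs on the same read are counted separately and reads carry no molecular identifiers, so that the intervals can be too narrow.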

Additional observations from a re-analysis of the deposited data

How the results depend on the processing

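The count of 131 called lncRNA promoters was 493 by edgeR's likelihood ratio test (background 6.55%), 13 by limma after subtraction of library medians (0.194%) and 79 with 500 bp on each side of the TSS (4836 promoters, background 1.1%). It ran from 2 to 141 when 1 library was left out (background 0.00762% to 2.12%), and limma without *Tet2*+/+ library 24, an alternative chosen after seeing the data, gave 6 (0.0686%). It lay between 102 and 141 (background 1.54% to 2.12%) with the other planned settings. These were other coverage minimums, thinning, dyads called in all libraries and the starts of all transcripts of coding genes. They also included a 10 kb distance, a minimum difference of 10 points and limma. The median difference was 4.89 to 8.69 points when 1 library was left out. The cause of these changes was not tested, beyond the smaller number of libraries or promoters. No paired analysis was possible because the groups share no replicate numbers. With 2 and 3 libraries an exact permutation test of 1 promoter cannot give a p below 0.1, and at 2.999 to 5.267 calls per dyad a CpG-poor promoter rests on the fewest calls.

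Some of the named promoters changed sign. After subtraction of library medians (log2 scale), *Snhg6* stood at -0.24, *Platr5* at -0.067, *Ptgs2os2* at -0.61, *Snhg12* at -0.50, *Kcnq1ot1* at -0.42, *Rmst* at -0.31, *Snhg20* at -0.25, *Hotair* at -0.13, *Mir155hg* at -0.037 and *Trp53cor1* at -0.34. With 500 bp on each side the difference in points was -0.53 for *Ptgs2os2*, -0.064 for *Snhg12*, -1.53 for *Kcnq1ot1*, -1.06 for *Trp53cor1*, 0.58 for *Malat1* and 0.20 for *Neat1*. *Ptgs2os2* was also at -0.11 after thinning and -0.071 over dyads called in all 5 libraries. When 1 library was left out, the difference ran from -0.25 to 3.41 points for *Snhg6*, -0.74 to 1.11 for *Ptgs2os2*, -12.1 to 3.45 for *Nespas*, -0.12 to 2.06 for *Snhg12*, -2.09 to 6.21 for *Kcnq1ot1*, -1.28 to 9.76 for *Rmst*, -0.87 to 8.94 for *Snhg20*, -1.97 to 0.20 for *Malat1* and -1.03 to 0.21 for *Neat1*. None of these promoters was called.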

Other observations

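Listed lncRNAs that start within 5 kb of a coding TSS were not among the 5921 promoters. Those of the HOX clusters, and the examples given, were picked outside the naming rule and are described here without a test. In the other lists, the differences of such lncRNAs ran from -4.06 points (*Dlx4os*) to 17.4 points (*Lhx1os*). All 7 of the HOX clusters had a positive difference (79.3% over all promoters), with a median of 14.4 points. After subtraction of library medians, 6 of 7 stood above the median promoter. Over all lncRNA promoters within 5 kb of a coding TSS, the median was 7.61 points at intermediate CpG content (upper quartile 14.3). It was 1.20 points in the CpG-dense class (upper quartile 5.14). Whether the 7 differ from promoters of like CpG content was not tested. In 5 of 7 the *Tet2*-/- libraries were all above both *Tet2*+/+ libraries (background 35.1%). None was called by edgeR or limma (background 1.93% and 1.72%), and 4 had an unadjusted p under 0.05 (background 19.3%). *Hottip*, which starts 1895 bp from the TSS of *Hoxa13*, had 13.9% and 7.45% in *Tet2*+/+ and 23.7%, 25.2% and 28.6% in *Tet2*-/- (edgeR adjusted p = 0.105). *Hoxb3os* had 40.3% and 22.99% against 57.7%, 40.4% and 73.0% (edgeR adjusted p = 0.170), with library 7 hardly above library 23. The window of *Hottip* overlaps that of the *Hoxa13* promoter, and the part of the coding gene in its difference was not tested. Of all 21 listed lncRNAs near a coding TSS, *Lhx1os* alone was called (background 1.93%), at 9.07% and 8.24% against 29.0%, 18.8% and 30.3% (edgeR adjusted p = 0.0310). Its start lies 125 bp from the TSS of *Lhx1*, so its window is almost wholly that of the coding promoter.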
